A study of Xenopus laevis with 28 samples.

Results

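The kidney and the intestine of adult Xenopus laevis, the African clawed frog, were compared directly as the 2 absorptive epithelial organs among 14 tissues. The comparison used the deposited table of TPM, a length-normalized unit of transcript abundance in which each gene model has a share of its library and each library adds up to 1000000. Its members were all gene models except those whose highest value lay in an ovary library, which gave 37870 of 45831 models. Of these, 25794 reached 1 TPM in at least 2 of the 28 libraries and were tested. The 7961 models that were highest in ovary, 7523 of them past the minimum, were fitted but are neither counted nor named below, except where a sentence says so. All frogs were of the inbred J strain, untreated as far as the labels say. Each tissue had 2 libraries of whole minced tissue, where the Taira dataset gave replicate 1 and the Ueno dataset gave replicate 2. Kidney and intestine of a dataset came from the same adult female, so each group is 2 animals. The p-values rest on the spread between the 2 libraries of a tissue, pooled over all 14 tissues. An effect of the animal cannot be told apart from those of its dataset, date code or clutch. Xenopus laevis is an allotetraploid, and many of its genes are kept as 2 homeologs, marked L and S after the point of a symbol for the longer and the shorter set of chromosomes.

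Both organs carry an epithelium with a brush border, a dense layer of microvilli whose membrane holds enzymes and sodium-coupled carriers. In the kidney the proximal tubule takes sugars, amino acids, salts and filtered proteins back from the primary urine, and later segments of the nephron adjust salt, acid and water. In the intestine enterocytes digest food at the brush border and take up its sugars, amino acids and lipids, while goblet and enteroendocrine cells secrete mucus and hormones. In amphibians the steroid-making interrenal tissue and the catecholamine-making chromaffin cells lie on the kidney itself.

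The 4 libraries held between 29964 and 32322 models above 0, and between 20009 and 25253 at 1 TPM or more, with the fewest in intestine replicate 2. TPM keeps no read depth, so the counting error behind a value is unknown. Across the tested members Pearson's r on log2(TPM + 1) was 0.949 between the kidney libraries, 0.926 between the intestine libraries and between 0.738 and 0.768 across the organs, as a description over genes that are not independent. By tissue means, kidney was most like lung (r = 0.797) and then intestine (0.777), and intestine was most like stomach (0.808) and then kidney. Transcripts of the germ line were present in the kidney libraries. The 49 models of an oocyte list, 36 of them highest in ovary, summed to 974 and 963 TPM in kidney, 45.1 and 26.9 TPM in intestine, and 15823 and 22395 TPM in ovary. Of the 7523 fitted models that were highest in ovary, 794 were called higher in kidney and 25 higher in intestine. Over the 25794 tested members the calls described below were 2757 (10.7%) and 1486 (5.76%). Red cell transcripts were also uneven, with a summed 19248 and 5523 TPM in kidney against 1293 and 337 TPM in intestine. What part these transcripts have in the differences below was not tested. In whole tissue, fewer cells of a type and less RNA per cell cannot be told apart.

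Kidney and intestine differed in a large set of genes, and the kidney set was the larger in the deposited scale. Of 25794 tested members, 2757 (10.7%) were called higher in kidney and 1486 (5.76%) higher in intestine, where a call needs a Benjamini-Hochberg adjusted p under 0.05 from limma and a difference of at least 1 on the log2(TPM + 1) scale, that is 2-fold. Differences are kidney minus intestine on that scale throughout, which understates changes of low genes, and the values of a gene are TPM with replicate 1 before replicate 2. The models called higher in kidney made up 20.3% and 21.4% of the TPM of the kidney libraries but 2.18% and 2.02% of the intestine libraries. The models called higher in intestine made up 21.5% and 21.7% of the intestine libraries and 1.73% and 1.37% of the kidney libraries. The libraries of the organs did not overlap for 2754 of the kidney calls and 1481 of the intestine calls, and the difference was at least 1 in each frog alone for 2506 and 1351. A call makes both likely, so they add no further support, and the shares over all tested members were not counted. Of the genes higher in kidney, 1385 stayed under 1 TPM in both intestine libraries, and of those higher in intestine, 655 stayed under 1 TPM in both kidney libraries. Most calls were also called above the mean of the other 12 tissues in the same organ, 1990 of the kidney calls and 1416 of the intestine calls. Over all 25794 tested members, 4038 were so called in kidney and 3473 in intestine. A call between the organs makes this likely too, so it adds no further support. Among the calls, 792 in kidney and 629 in intestine had no gene symbol and stay unnamed.

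The balance between the organs depended on the scale. In the deposited TPM 65% of the calls were higher in kidney and the median tested member differed by 0.24. After median-of-ratios scaling the median was 0.00, with 1784 calls higher in kidney and 2047 higher in intestine (46.6% in kidney), and under quantile normalization there were 1745 and 2116 (45.2%). Without intestine replicate 2 the kidney count was 1831. Leaving out also the models that were higher in ovary than in both organs gave 2414 and 1473.

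**Figure D1:**
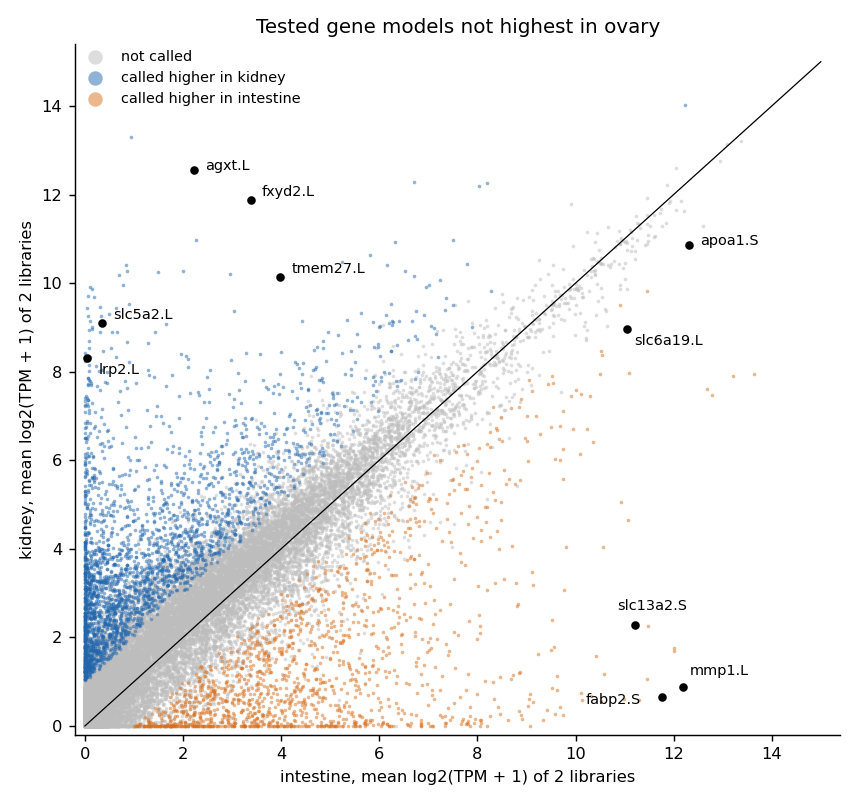
Mean log2(TPM + 1) of the 2 kidney libraries against that of the 2 intestine libraries for the 25794 tested members, with the 2757 models called higher in kidney in blue, the 1486 called higher in intestine in orange and the rest in grey. The line marks equal values; agxt.L and lrp2.L lie far above it, mmp1.L and fabp2.S far below it, and apoa1.S lies at high values in both organs.

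The genes with the largest differences in kidney included enzymes of small-molecule breakdown and carriers of the tubule. The 12 with the largest difference were taken from models with a usable symbol, that is one that is no placeholder. Each reached at least 218 TPM in both kidney libraries and stayed under 25 TPM in both intestine libraries. For agxt.L, alanine-glyoxylate aminotransferase, which turns glyoxylate into glycine, the values were 4958 and 7260 TPM in kidney and 2.04 and 6.14 TPM in intestine. The difference was 10.33 (SE 0.53, limma adjusted p = 7.18e-11), with liver next at a mean of 659 TPM. The libraries of the organs lay far apart, and liver stood between them. For allc.L, allantoicase, an enzyme of purine breakdown that many mammals have lost as an active enzyme, kidney had 851 and 1083 TPM and intestine 0 and 0.17 TPM (9.79). The ficolin fcn2.1, a secreted lectin of innate immunity in mammals, had 705 and 533 TPM against 0 and 0.08 TPM (9.21). The carrier slc5a2.L, the sodium-glucose cotransporter SGLT2 that recovers most filtered glucose in mammals, had 312 and 968 TPM against 0.11 and 0.46 TPM (8.76, SE 0.42, adjusted p = 2.88e-11). Kidney replicate 2 was the higher kidney library, and both lay above every intestine value. Its small membrane partner pdzk1ip1.S, known as MAP17 in mammals, went the same way with 853 and 443 TPM against 0.46 and 0.09 TPM (8.93). The remaining 7 were adh6.S (an alcohol dehydrogenase, 9.19), tmlhe.S (the enzyme that opens carnitine synthesis, 8.80), bhmt.L (betaine-homocysteine methyltransferase, 8.70), fxyd2.L (the gamma subunit of the sodium pump, 8.50), miox.S (inositol oxygenase, 8.46), rhbg.L (an ammonia channel, 8.35) and aadat.L (an aminotransferase of lysine and kynurenine breakdown, 8.27).

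Those with the largest differences in intestine included binding proteins of fatty acids and retinol, brush border proteases and a collagenase. All 12 leading genes reached at least 362 TPM in both intestine libraries and at most 6.26 TPM in kidney. Among genes with a usable symbol, the largest difference was that of mmp1.L, a matrix collagenase. It had 4818 and 4472 TPM in intestine against 0 and 2.35 TPM in kidney (-11.31, SE 0.43, limma adjusted p = 1.2e-12). No other tissue came near it, the next being muscle at a mean of 0.81 TPM. Both copies of fabp2, the intestinal fatty acid binding protein, were among the leaders. The S copy had 3367 and 3560 TPM in intestine and 0 and 1.51 TPM in kidney (-11.09), and the L copy 1672 and 2448 TPM and 0 and 1.3 TPM (-10.38). The cellular retinol binding protein rbp2.S had 552 and 1067 TPM in intestine and 0 and 0.44 TPM in kidney (-9.32). In these genes, and in fabp1.S (-9.25) and tm4sf4.L (-9.06), kidney replicate 1 was at 0 and kidney replicate 2 between 0.44 and 2.35 TPM. The carrier slc13a2.S, the sodium-dicarboxylate cotransporter that in mammals also works in the proximal tubule, had 860 and 6568 TPM in intestine and 2.27 and 6.26 TPM in kidney (-8.93, SE 0.94, adjusted p = 1.16e-06). Its intestine libraries were the most uneven of this group, and both lay far above kidney. The others were mep1a.L (the metalloprotease meprin alpha, -9.40), tmem30c.L (-8.82), aqp8.S (a water channel, -8.75), hnf4b.S (a nuclear receptor of the HNF4 family, -8.68) and anpep.S (aminopeptidase N, -8.50).

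**Figure D2:**
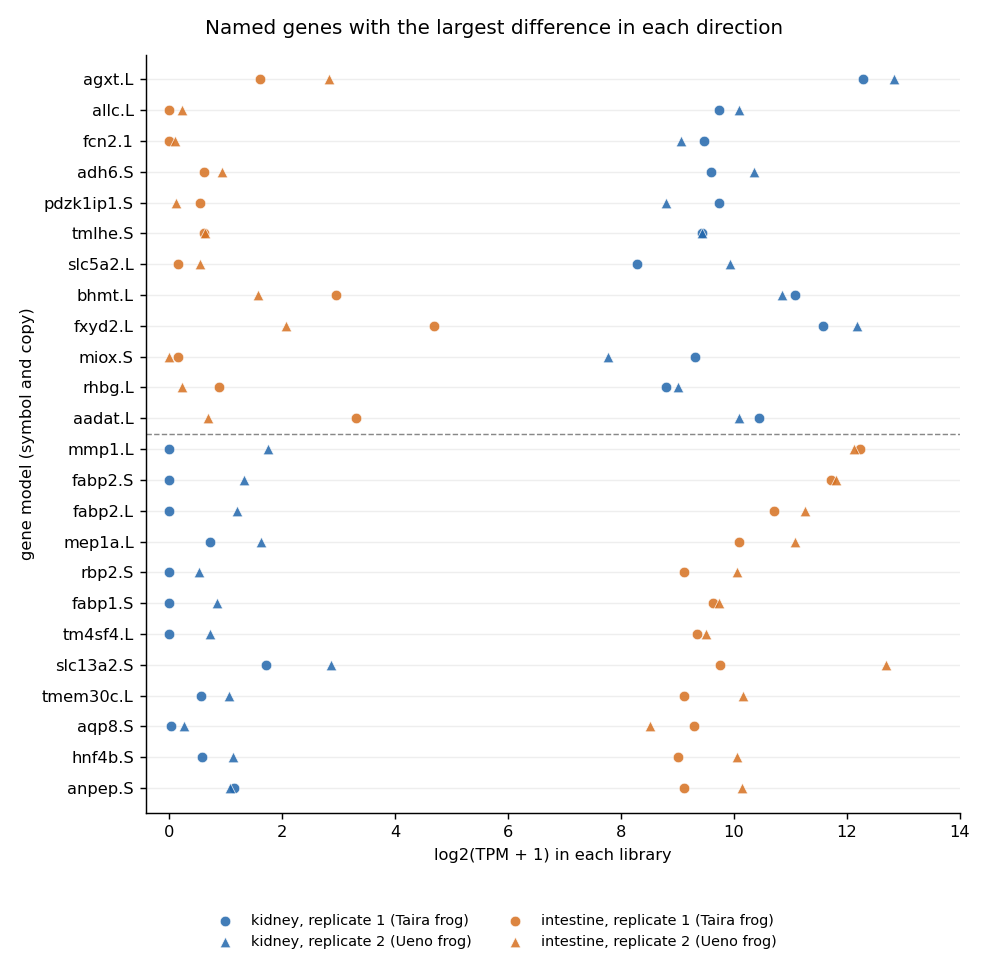
log2(TPM + 1) in each of the 4 libraries for the 12 named genes with the largest difference in each direction, kidney above the dashed line and intestine below it. In all 24 genes the organs lie apart, which the choice of genes required, and the widest gap inside an organ is that of slc13a2.S in intestine.

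The differences were then read through 23 lists of pathway genes, which hold 882 different models under the symbols of the table. Of these 65 were highest in ovary and 58 were below the minimum, so 759 were tested, with 166 higher in kidney and 123 higher in intestine. Between 18 and 21 of the 84 counts of these lists and of the marker lists moved by more than 1.5 times when 1 library was left out. With only the 4 kidney and intestine libraries in the fit, which leaves few degrees of freedom, 50 of the 84 counts moved that far. Where limma called 0 models of a list in a direction, the number at an unadjusted p under 0.05 follows. Many listed genes were not found by symbol. Among them were the peptide carriers slc15a1 and slc15a2, the phosphate carriers slc34a1 and slc34a2, and the calcium channels trpv5 and trpv6. No symbol is given for 20523 models, and whether the missing genes lie among these models was not tested. The lists overlap, and each count below stands beside the shares of 10.7% and 5.76% over all tested members. Sums of TPM of a list are over all its models, also those highest in ovary or below the minimum.

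**Figure D3:**
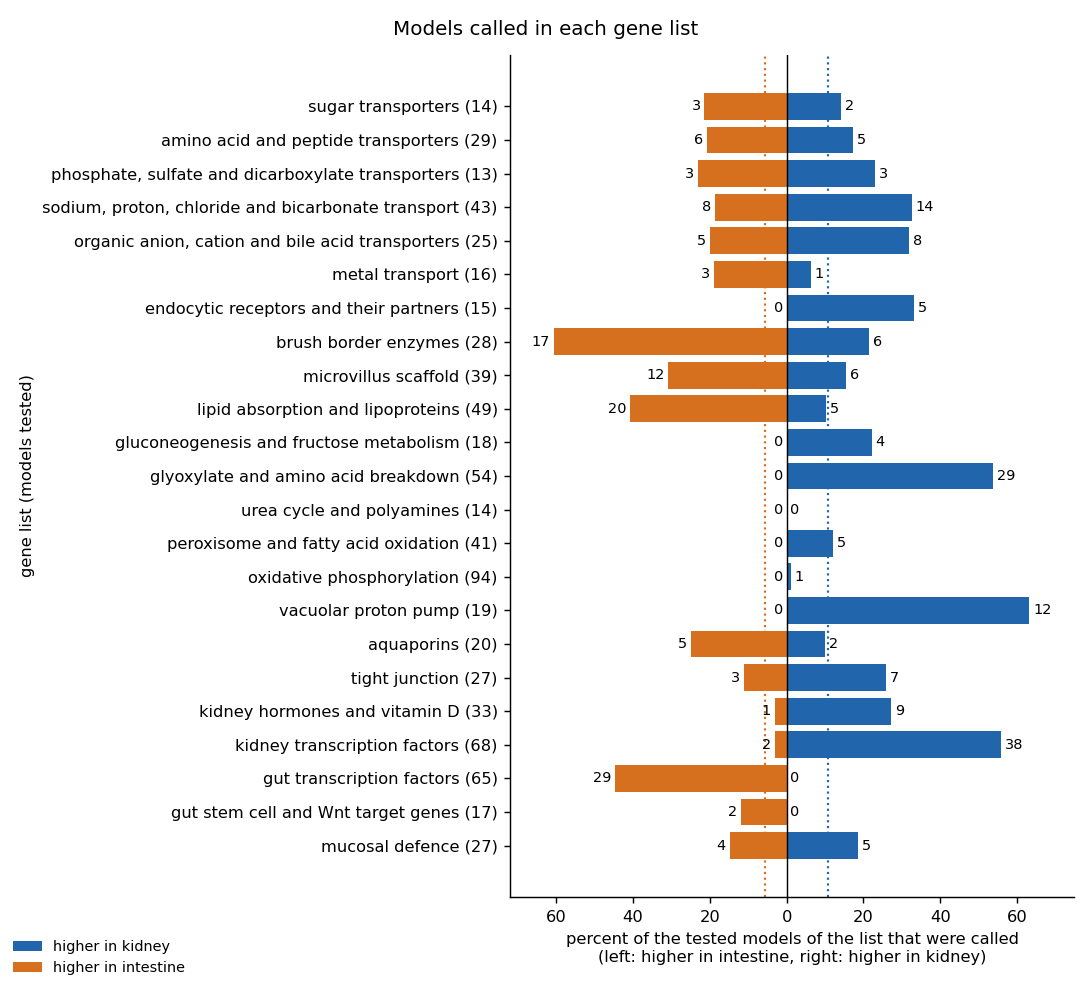
Share of the tested models of each list that were called higher in kidney (blue, right) or in intestine (orange, left), with the number of called models at the bar's end and the number tested in parentheses. The dotted lines mark the shares over all tested members, 10.7% in kidney and 5.76% in intestine; the vacuolar proton pump reached 12 of 19 in kidney and the brush border enzymes 17 of 28 in intestine.

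Most sugar carriers were not called, and those that were included members in each organ. Of 14 tested models, 2 were higher in kidney, 3 were higher in intestine and 9 were not called, with a median difference of 0.32. Beside slc5a2.L in kidney, the intestine had slc2a9.L, a carrier of urate and sugars, at 220 and 363 TPM against 0.87 and 1.2 TPM in kidney (-7.13, SE 0.52, limma adjusted p = 1.02e-08). It also had slc2a5.L, the fructose carrier, at 250 and 356 TPM against 60.9 and 42.7 TPM (-2.53, adjusted p = 0.00012). Neither gene overlapped between the organs, though slc2a5.L was well above 0 in kidney. The intestinal glucose cotransporter of mammals, SGLT1, is represented by slc5a1.2.L, which was present in both organs at 111 and 224 TPM in kidney and 327 and 661 TPM in intestine. Its difference of -1.55 (95% interval -2.84 to -0.27) did not pass the test (adjusted p = 0.105), and it was called higher in intestine after median-of-ratios scaling. Its S copy stayed at or under 0.06 TPM in all 4 libraries. The lactate and monocarboxylate carrier slc5a12-like.L was abundant in both, at 405 and 295 TPM in kidney and 540 and 766 TPM in intestine (-0.89, adjusted p = 0.0332, below the size a call needs). Its S copy was at 0 in both kidney libraries, and at 351 and 1.89 TPM in intestine, so its level rests on intestine replicate 1. After median-of-ratios scaling 5 models of the list were higher in intestine.

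A carrier of neutral amino acids was found in both organs, beside a partner that was higher in kidney. This carrier, slc6a19, known as B0AT1, works in the mammalian kidney with the membrane protein collectrin (tmem27). In the frog slc6a19.L was present in both organs, at 818 and 305 TPM in kidney and 2204 and 2023 TPM in intestine, and under 10 TPM in every other library. The intestine libraries lay above those of kidney (-2.08, SE 0.52, limma adjusted p = 0.00859), but without kidney replicate 2 the difference was -1.37 (adjusted p = 0.165). The S copy was closer between the organs, at 134 and 59.4 TPM in kidney and 143 and 137 TPM in intestine (-0.64, 95% interval -1.25 to -0.03, adjusted p = 0.175). Collectrin, tmem27.L, had 1605 and 796 TPM in kidney and 14.9 and 14.7 TPM in intestine (6.16, SE 0.44, adjusted p = 6.57e-09). Its kidney libraries both lay far above those of intestine. Over the whole list of 29 tested models, 5 were higher in kidney and 6 in intestine (median -0.24). The kidney count fell to 2 without intestine replicate 2 and 3 without kidney replicate 2, and the intestine count was 4 without kidney replicate 2 and 9 after median-of-ratios scaling. Other kidney genes included slc6a14.1.L, a carrier of neutral and cationic amino acids, at 95.4 and 26.3 TPM against 0.05 and 0 TPM (5.65). In intestine slc6a6.S, the taurine carrier, had 24 and 13.6 TPM against 0.26 and 0.28 TPM in kidney (-3.91). The shared chain of the heteromeric carriers, slc3a2.L, was high in both organs (549 and 702 TPM in kidney, 738 and 866 TPM in intestine) and not called (adjusted p = 0.864).

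The list of phosphate, sulfate and dicarboxylate carriers held calls in both organs. Of 13 tested models in the list, 3 were higher in kidney, or 5 without intestine replicate 1, and 3 in intestine (median 0.83). While slc13a2 was intestinal in both copies, with slc13a2.L at 31.3 and 113 TPM against 2.4 and 2.62 TPM in kidney (-4.11), the citrate carrier slc13a5 was higher in kidney. Its S copy had 29.9 and 22.6 TPM in kidney and 0.06 and 0.09 TPM in intestine (4.65, SE 0.30, limma adjusted p = 1.64e-09), and its L copy 9.74 and 7.13 TPM against 0.03 and 0.06 TPM (3.16). Among carriers of organic anions, cations, nucleosides and bile acids, 8 of 25 tested models were higher in kidney and 5 in intestine (median 0.41). The kidney count was 5 without any 1 of the 4 libraries and after median-of-ratios scaling, and the intestine count was 3 without kidney replicate 2 or intestine replicate 1. The carnitine and cation carrier slc22a16.L had 34.1 and 46.7 TPM in kidney and 0.94 and 0.43 TPM in intestine (4.62), and the efflux pump abcc4.S had 58.1 and 18.5 TPM against 3.22 and 0.63 TPM (3.70). The nucleoside carrier slc28a2.L was higher in intestine, at 67.2 and 84.2 TPM against 18.9 and 21.6 TPM in kidney (-1.84). Among genes of metal transport, 1 of 16 was higher in kidney and 3 in intestine (median -0.92). The metal carrier slc39a8-like.S had 79.5 and 112 TPM in intestine and 0.05 and 0 TPM in kidney (-6.54), while its L copy was uneven, at 1295 and 10.2 TPM in intestine against 1.85 and 1.38 TPM in kidney (-5.53). Without intestine replicate 1 the difference of the L copy was -2.10, and without intestine replicate 2 the list had 6 models higher in intestine. With the frog as a block and after median-of-ratios scaling it had 5, with 0 higher in kidney after that scaling. The iron exporter slc40a1.L was not called (61.3 and 32.4 TPM in kidney, 700 and 76.3 TPM in intestine, adjusted p = 0.0737).

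The list of ion transport held calls in both organs. Of 43 tested models for sodium, proton, chloride and bicarbonate transport, 14 were higher in kidney and 8 in intestine (median 0.49). The loop cotransporter slc12a1.L, the target of loop diuretics in mammals, had 396 and 167 TPM in kidney and 0.39 and 0.06 TPM in intestine (7.73, SE 0.62, limma adjusted p = 3.39e-08). The thiazide-sensitive cotransporter slc12a3.L had 238 and 225 TPM against 0 and 0.1 TPM (7.79, SE 0.21, adjusted p = 1.78e-14). The beta subunit of the epithelial sodium channel, scnn1b.L, had 77.2 and 107 TPM against 0.23 and 0.13 TPM (6.29). All 3 were near 0 in intestine. In intestine the chloride-bicarbonate exchanger slc26a3.2.S had 95.8 and 46.3 TPM against 0.03 and 0.07 TPM in kidney (-6.01). The anion channel best4.S had 56.4 and 42.6 TPM against 0.18 and 0.12 TPM (-5.44, SE 0.16, adjusted p = 3.04e-14), and the membrane-bound carbonic anhydrase ca4.S had 1114 and 103 TPM against 0.42 and 0.26 TPM (-8.00). The sodium bicarbonate cotransporter slc4a4.S, which in mammals moves bicarbonate out of the proximal tubule cell on its blood side and was listed as a proximal tubule marker, was higher in intestine, at 130 and 99.8 TPM against 7.63 and 2.27 TPM in kidney (-4.44, SE 0.83, adjusted p = 0.000764).

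The vacuolar proton pump, which acidifies vesicles everywhere and the urine in intercalated cells, was higher in kidney in 12 of 19 tested models and in intestine in 0 (0 unadjusted), with a median of 1.81. The count was 7 without either kidney library, 8 without intestine replicate 2 and 8 after median-of-ratios scaling. The strongest members were the subunits of specialised epithelia. For atp6v1c2.L kidney had 95.4 and 85.3 TPM and intestine 0 and 0.04 TPM (6.48, SE 0.36, limma adjusted p = 2.51e-10), and for atp6v0d2.L the values were 211 and 177 TPM and 6.48 and 3.51 TPM (5.06). The transcription factor of acid-secreting cells in frog skin and mammalian kidney, foxi1, went with them, at 78.4 and 75.4 TPM in kidney and 0.08 and 0 TPM in intestine for foxi1.L (6.23), and 44.5 and 46.3 TPM against 0.08 and 0.04 TPM for foxi1.S (5.45).

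Most water channels and tight junction proteins were not called, but calls were more frequent than over all tested members, except for aquaporins in kidney. The shares were 10% in kidney and 25% in intestine for aquaporins, and 25.9% and 11.1% for the tight junction list. Of 20 tested aquaporins 2 were higher in kidney and 5 in intestine (median -0.06), the kidney count being 1 without intestine replicate 1 and after median-of-ratios scaling, and the intestine count 3 without kidney replicate 2. The aquaglyceroporin aqp10.L was present in both and higher in intestine, at 583 and 2113 TPM against 193 and 166 TPM in kidney (-2.62, SE 0.42, limma adjusted p = 0.00016, and -1.70 without intestine replicate 2). A further model of this name, aqp10.1, was higher in kidney at 47.3 and 42.4 TPM against 3.47 and 8.65 TPM (2.80). The vasopressin-regulated channel of the mammalian collecting duct, aqp2.L, which was looked at after its values were seen, was at 0.03 and 0 TPM in kidney and 0.04 and 0.11 TPM in intestine, with skin at a mean of 53.4 TPM. Of 27 claudins and junction plaque genes 7 were higher in kidney and 3 in intestine (median 0.25). After median-of-ratios scaling 5 were higher in intestine. The kidney calls included claudins known from the loop of the nephron in mammals, cldn10.L at 66.9 and 26.4 TPM against 0.15 and 0.04 TPM in intestine (5.30) and cldn16.S at 36.3 and 29.6 TPM against 0 in both intestine libraries. Intestine had cldn2.L at 128 and 20.1 TPM and cldn15.1.1 at 103 and 37.9 TPM, with at most 0.4 TPM in kidney (-5.59 and -5.63). The other intestine call was cldn8.1.S, a claudin of the later nephron in mammals, at 6.39 and 2.13 TPM against 0.69 and 2.05 TPM in kidney (-1.08, adjusted p = 0.0325), which was lost without kidney replicate 1 or intestine replicate 1. Its L copy was not called, at 15.2 and 12.6 TPM in kidney and 24.7 and 0.15 TPM in intestine (adjusted p = 0.429). The claudin cldn3.L had no call, at 131 and 131 TPM in kidney and 235 and 142 TPM in intestine (adjusted p = 0.766).

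**Figure D4:**
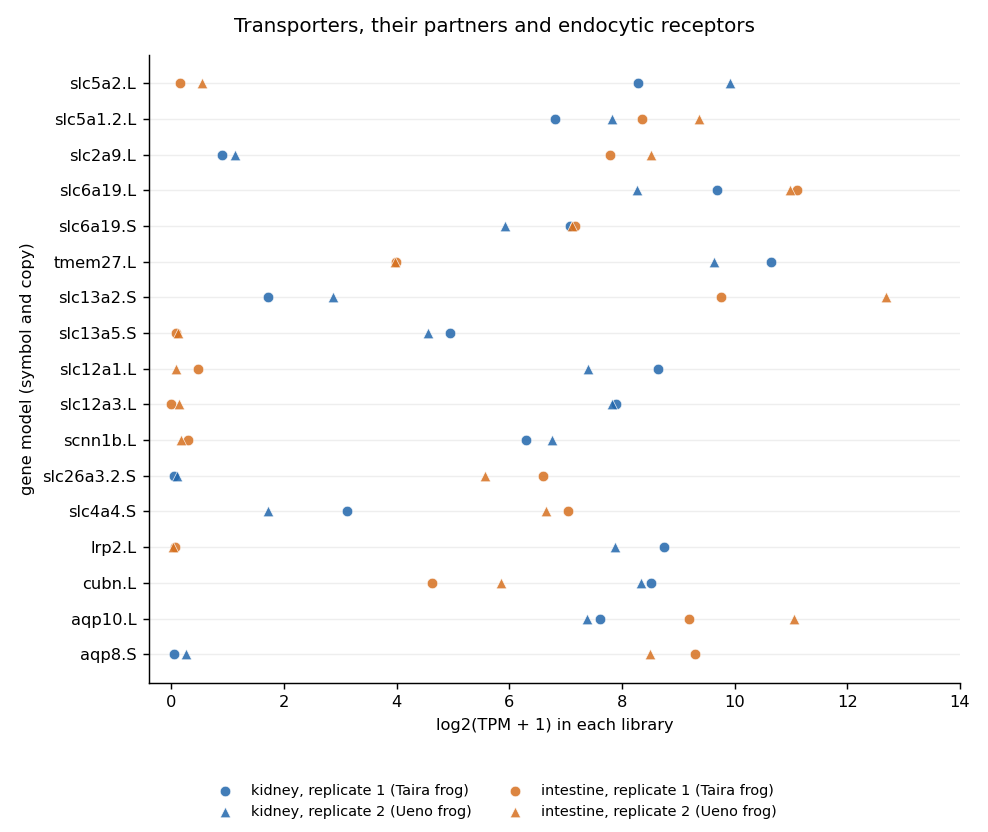
log2(TPM + 1) in each of the 4 libraries for carriers, their partners, water channels and endocytic receptors, kidney in blue and intestine in orange. The carriers slc5a1.2.L, slc6a19.L and slc6a19.S lie at high values in both organs, while the partner tmem27.L lies far higher in kidney.

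The receptors that retrieve filtered protein were higher in kidney, some of them with clear levels in intestine as well. Megalin, lrp2.L, had 430 and 233 TPM in kidney and 0.05 and 0.02 TPM in intestine (8.26, SE 0.54, limma adjusted p = 2.21e-09). Its partner cubilin, cubn.L, which in mammals also binds the vitamin B12 complex in the gut, had 366 and 323 TPM in kidney and 23.7 and 57 TPM in intestine (3.19, SE 0.45, adjusted p = 4.03e-05). Amnionless, amn.L, which anchors cubilin in the membrane, had 142 and 101 TPM against 22.3 and 31.3 TPM (2.14, adjusted p = 0.000101). Megalin was close to 0 in intestine, while cubilin and amnionless were lower there but well above 0. In the list, 5 of 15 tested models were higher in kidney and 0 in intestine (0 unadjusted, median 0.36), the kidney count was 3 without any 1 of the 4 libraries, and the intestine count was 1 after median-of-ratios scaling. The folate receptor folr1.L was abundant in both organs (418 and 583 TPM in kidney, 670 and 2162 TPM in intestine) and not called (adjusted p = 0.273).

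Brush border enzymes were mostly intestinal. Of 28 tested models, 17 were higher in intestine and 6 in kidney, with a median of -2.39. The neutral ceramidase asah2.L had 258 and 1080 TPM in intestine and 0.22 and 0.89 TPM in kidney (-8.45, SE 0.42, limma adjusted p = 4.49e-11). The alkaline sphingomyelinase enpp7.L had 451 and 1176 TPM against 1.88 and 2.8 TPM (-7.78, SE 0.31, adjusted p = 1.75e-12). In both enzymes of sphingolipid digestion intestine replicate 2 was the higher library, and kidney stayed under 3 TPM. Enteropeptidase, tmprss15.S, which activates trypsin and was chosen after its values were seen, had 261 and 108 TPM against 0.4 and 0.24 TPM (-7.00). Alkaline phosphatase alpi.1.1 was found in both, at 248 and 650 TPM in intestine and 46.1 and 47.8 TPM in kidney (-3.07). The 6 kidney calls included pdzk1ip1.S and pdzk1ip1.L, which are membrane proteins rather than enzymes, and the copies mep1a.S and enpep.S, whose homeologs were higher in intestine. The remaining calls were the scaffold pdzk1.S (1.39) and, named after its values were seen, folh1-like.L, a glutamate carboxypeptidase, at 178 and 230 TPM against 12.1 and 14.9 TPM in intestine (3.82).

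The scaffold of the microvillus was shared in part. Of 39 tested models 12 were higher in intestine and 6 in kidney (median -0.91). The intestine count was 5 without kidney replicate 2, 6 without intestine replicate 1 and 19 after median-of-ratios scaling. The actin bundler plastin 1 was intestinal in both copies, with pls1.L at 76.5 and 48.6 TPM against 1.59 and 0.38 TPM in kidney (-5.04) and pls1.S at 48.4 and 55.7 TPM against 0.04 and 0.14 TPM (-5.60). The brush border myosin myo1a.S had 222 and 137 TPM in intestine and 18.1 and 15.8 TPM in kidney (-3.29). The related cadherins of the lateral membrane went opposite ways. The kidney cadherin cdh16-like.1.L had 334 and 129 TPM in kidney and 0.13 and 0.05 TPM in intestine (7.58, SE 0.54, limma adjusted p = 7.52e-09). The liver-intestine cadherin cdh17.L had 7.35 and 1.06 TPM in kidney and 381 and 97.8 TPM in intestine (-5.55, SE 0.66, adjusted p = 5.67e-06). Neither cadherin overlapped between the organs, and replicate 1 was the higher library of both. The protocadherin cdhr2.L, which links microvilli at their tips, was not called (190 and 52.6 TPM in kidney, 208 and 126 TPM in intestine, adjusted p = 0.529), though it was after median-of-ratios scaling.

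Genes of lipid absorption and lipoproteins were higher in intestine more often than in kidney. Of 49 tested models 20 were higher in intestine, 5 were higher in kidney and 24 were not called (median -0.58). All 56 models of the list summed to 18322 and 22594 TPM in intestine and 10366 and 7460 TPM in kidney. Beside the fatty acid and retinol binding proteins, the sterol carriers stood out after their values were seen. The cholesterol uptake protein npc1l1.L had 50.3 and 43.4 TPM in intestine and 0.13 and 0.25 TPM in kidney (-5.33). The sterol efflux pair abcg5.S and abcg8.S had 225 and 220 TPM, and 308 and 235 TPM, in intestine and at most 0.18 TPM in kidney (-7.69 and -8.02). Each of these 3 was near 0 in the kidney libraries. The list also had the 5 kidney calls. Both copies of slc27a2-like, a very long chain acyl-CoA synthetase of kidney and liver in mammals, were among them, slc27a2-like.L at 150 and 338 TPM against 0.07 and 0.04 TPM in intestine (7.74, SE 0.28, limma adjusted p = 5.46e-13) and slc27a2-like.S at 126 and 211 TPM against 0 and 0.08 TPM (7.30). The microsomal triglyceride transfer protein mttp.2.1, which loads lipoproteins, had 307 and 374 TPM in kidney, 1.57 and 4.92 TPM in intestine (6.45, SE 0.84, adjusted p = 1.7e-05) and a mean of 2380 TPM in liver. Apolipoprotein E, apoe.S, had 1785 and 1038 TPM in kidney and 96 and 52 TPM in intestine (4.25, adjusted p = 0.00221), and the heart-type fatty acid binding protein fabp3.S, named after its values were seen, had 18.2 and 44.1 TPM against 0.87 and 1.07 TPM (3.90). The other apolipoprotein E copy was not called: apoe.L, at 4423 and 2850 TPM against 877 and 1060 TPM, missed the threshold (adjusted p = 0.0603). The apolipoproteins apob.L (682 and 98.4 TPM in kidney, 640 and 75.3 TPM in intestine) and apoa1.S were high in both organs and not called, with replicate 1 of apob.L above replicate 2 in both organs.

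Of the lists of intermediary metabolism, amino acid breakdown held many kidney calls and the respiratory chain 1. In the list for glyoxylate and amino acid breakdown, 29 of 54 tested models were higher in kidney and 0 in intestine (1 unadjusted, median 2.20), with 1 in intestine without intestine replicate 2 and 25 in kidney after median-of-ratios scaling. The mitochondrial enzyme hoga1.L, which makes glyoxylate from hydroxyproline and was named after its values were seen, had 386 and 580 TPM in kidney and 0.89 and 2.86 TPM in intestine (7.46). Inositol oxygenase was a kidney gene in both copies, with miox.L at 404 and 230 TPM against 0 and 0.11 TPM (8.18) beside miox.S. The D-amino acid oxidase dao.L was abundant in both organs, at 783 and 461 TPM in kidney and 495 and 387 TPM in intestine (adjusted p = 0.881), and so was glud1.L. For gluconeogenesis and fructose metabolism 4 of 18 models were higher in kidney and 0 in intestine (1 unadjusted, median 0.63). The kidney count was 2 without kidney replicate 2, and the intestine count was 1 without it and with the frog as a block, and 2 without intestine replicate 2. Glucose-6-phosphatase, g6pc-like.1.L, had 469 and 708 TPM in kidney and 122 and 12.2 TPM in intestine (3.84, SE 0.69, limma adjusted p = 0.000513, and 2.23 without intestine replicate 2). In the oxidative phosphorylation list 1 of 94 models was higher in kidney and 0 in intestine (0 unadjusted, median 0.42), under the background in both directions, and the only call, atp5s.L, was lost without any 1 of the 4 libraries and after scaling. In the urea cycle and polyamine list 0 of 14 models passed the test of limma in either direction (1 in each unadjusted, median 0.04), for example arg1.L at 101 and 118 TPM in kidney and 28.3 and 40 TPM in intestine (adjusted p = 0.556). Of 41 models of the peroxisome and fatty acid oxidation, 5 were higher in kidney and 0 in intestine (0 unadjusted, median 0.57), a share of 12.2%. With the frog as a block the count was 11, without kidney replicate 1, kidney replicate 2 or intestine replicate 2 it was 3, and after median-of-ratios scaling 3 were higher in kidney and 1 in intestine.

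Among transcription factors known from development of the organs, calls went mostly to the organ a list is named for, and many members were not called. Of 68 tested models in the kidney list, 38 were higher in kidney and 2 in intestine (median 1.92), while 28 were not called. Of 65 in the gut list, 29 were higher in intestine and 0 in kidney (5 unadjusted, median -1.25), and 36 were not called. After median-of-ratios scaling the counts were 35 and 4, and 34 and 0, and with the frog as a block 2 of the gut list were higher in kidney. The gut list summed to 464 and 471 TPM in kidney against 1185 and 1030 TPM in intestine. Pax8.L, which with pax2 starts the nephric lineage, had 44.9 and 28.6 TPM in kidney and 0 and 0 TPM in intestine. It was called (limma adjusted p = 1.17e-11), and since intestine is listed at 0 no fold is given. The homeobox gene hoxd8.L had 69.2 and 98.3 TPM in kidney and 1.67 and 0.06 TPM in intestine (5.63), and wt1.S of the podocyte 9.32 and 9.58 TPM against 0.1 and 0.11 TPM (3.24). In intestine the caudal factors that set intestinal identity led the list. The gene cdx1.S had 195 and 66.2 TPM in intestine and 0 and 0.11 TPM in kidney (-6.77, SE 0.29, adjusted p = 7.5e-12), cdx2.L had 85.5 and 87.4 TPM against 0 and 0.24 TPM (-6.30), and cdx2.S 50.8 and 84.5 TPM against 0 and 0.33 TPM (-5.85). The foregut and pancreas factor pdx1.S had 30.7 and 38.9 TPM against 0 and 0.08 TPM (-5.10). In each of these genes kidney stayed under 1 TPM. The HNF4 nuclear receptors, which drive epithelial and liver genes, divided within the family. The copies hnf4a-like.L (48.9 and 19.6 TPM in kidney, 66.5 and 32.7 TPM in intestine, -0.57, 95% interval -1.51 to 0.37) and hnf4a-like.S (-0.54, adjusted p = 0.608) were not called, although the L copy was called higher in intestine after median-of-ratios scaling. Both copies of hnf4g were higher in intestine, with hnf4g.L at 14.5 and 27.4 TPM against 0.99 and 0.49 TPM (-3.61) and hnf4g.S at 6.25 and 33.7 TPM against 0.35 and 0.23 TPM (-3.62), as was hnf4b.S. The exceptions of the kidney list were both copies of nr1h4, the bile acid receptor FXR, with nr1h4.L at 0.89 and 0.33 TPM in kidney and 14.5 and 4.68 TPM in intestine (-2.56), while the call of nr1h4.S was lost without intestine replicate 1.

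Genes of kidney hormones and their receptors were higher in kidney more often than in intestine. Of 33 tested models 9 were higher in kidney and 1 in intestine (median 0.27), the kidney count being 5 without kidney replicate 1 or intestine replicate 2, the intestine count 2 without either of these, and the counts 7 and 4 after median-of-ratios scaling. Renin, ren.S, had 18.9 and 9.81 TPM in kidney and 0.56 and 0.26 TPM in intestine (3.39, SE 0.29, limma adjusted p = 7.94e-08). The co-receptors of hormone-like fibroblast growth factors divided, with kl.L (alpha klotho) at 75.3 and 91.3 TPM in kidney and 24.2 and 13.2 TPM in intestine (2.15, adjusted p = 5.61e-05) and klb.L (beta klotho) at 1.61 and 1.27 TPM in kidney and 27.2 and 22.5 TPM in intestine (-3.40, adjusted p = 0.00012). Neither of these models overlapped between the organs. The other alpha klotho copy, kl.S, was not called, at 24.8 and 7.92 TPM in kidney and 16 and 4.59 TPM in intestine (0.64, limma adjusted p = 0.533). In the list of stem cell and Wnt target genes 2 of 17 models were higher in intestine and 0 in kidney (2 unadjusted, median 0.08), the latter 2 with the frog as a block and 1 without intestine replicate 1. Olfactomedin 4, olfm4.L, a marker of crypt base cells in the human intestine, had 284 and 89.9 TPM in intestine and 0.28 and 0.08 TPM in kidney (-7.10, SE 0.98, adjusted p = 3.29e-05), and the other call, axin2.L, was lost without kidney replicate 1 or intestine replicate 1. Of 27 genes of mucosal defence 5 were higher in kidney, or 8 with the frog as a block, and 4 in intestine (median 0.37). The galectin lgals2.S had 132 and 128 TPM in intestine and 0 TPM in both kidney libraries, and lgals2.L 126 and 103 TPM against 1.72 and 0.87 TPM (-5.67). The lectin itln1.S, a goblet cell product in mammals, went the other way with 18.7 and 25.6 TPM in kidney and 0.67 and 0.86 TPM in intestine (3.70).

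Lists of cell type markers, 425 different tested models with 100 higher in kidney and 55 in intestine, described what the whole tissues held. For the lists of enterocytes and of parts of the nephron, calls went mostly to the organ that holds these cells. In the enterocyte list 21 of 35 models were higher in intestine and 2 in kidney (median -2.15), and the list summed to 21927 and 26138 TPM in intestine against 5298 and 3549 TPM in kidney. In the distal nephron list 19 of 35 were higher in kidney and 2 in intestine (median 2.33), the latter 0 without intestine replicate 1 and 1 without either kidney library, with sums of 1275 and 1113 TPM against 261 and 26.5 TPM. In the podocyte list 8 of 27 were higher in kidney and 0 in intestine (0 unadjusted, median 1.27), 14 with the frog as a block and 5 without kidney replicate 1. In the proximal tubule list 7 of 22 were higher in kidney and 2 in intestine (median 0.51). Unlike those of the enterocyte and distal nephron lists, its sums were close, at 6993 and 8549 TPM in kidney and 6346 and 6025 TPM in intestine. Its intestine count was 4 without intestine replicate 2 and after median-of-ratios scaling, and 3 without kidney replicate 1 or intestine replicate 1. The carrier slc6a19, with high levels in each organ, is in that list.

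Markers of hormone-secreting cells differed between the organs. In the enteroendocrine list 14 of 41 models were higher in intestine and 4 in kidney (median -0.99), with 1 in kidney without kidney replicate 1 or intestine replicate 2. The incretin gip.L had 82.4 and 218 TPM in intestine and 1.24 and 0.37 TPM in kidney (-6.27, SE 0.39, limma adjusted p = 1.02e-09), neurotensin nts.L had 118 and 98.6 TPM against 0.44 and 0.97 TPM (-6.01), and somatostatin sst.S had 21 and 86.5 TPM against 0 TPM in both kidney libraries. The 4 kidney calls were chgb.L (97.7 and 17.6 TPM against 1.23 and 0.12 TPM in intestine, 4.76), chgb.S (4.89), cpe.1 (2.39) and scgn.S (2.22). Not called was chga.L, at 16.6 and 8.49 TPM in kidney and 78.3 and 48.7 TPM in intestine (-2.28, limma adjusted p = 0.0557). In the interrenal and chromaffin list 11 of 21 were higher in kidney and 2 in intestine (median 1.56), the latter 1 without kidney replicate 2 or intestine replicate 2 and 4 after median-of-ratios scaling and with the frog as a block. The steroid 21-hydroxylase cyp21a2.1.L had 172 and 264 TPM in kidney and 0 and 0.19 TPM in intestine (7.62, SE 0.25, adjusted p = 1.88e-13), and dbh.S, dopamine beta-hydroxylase of noradrenaline synthesis, 66.8 and 75 TPM against 0 and 0.05 TPM (6.13). The cholesterol receptor scarb1.L, listed there, was higher in intestine at 256 and 539 TPM against 11.7 and 6.95 TPM (-5.21). In the goblet cell list 4 of 9 were higher in intestine and 1 in kidney (median -1.24), for example bcas1.L at 38.4 and 9.41 TPM against 0.89 and 0.68 TPM (-3.51).

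Among lists of other cell types, some held many calls and others few or none. The share called higher in kidney ran from 80% for erythrocytes to 0% for pancreas acinar and cell division. Smooth muscle had 5% in each organ, under the shares of 10.7% and 5.76% over all tested members. Of 30 tested models of motile cilia, which line parts of the amphibian nephron, 17 were higher in kidney and 1 in intestine (median 2.23), the latter 0 without kidney replicate 2 or either intestine library, for example foxj1.L at 13.3 and 10.4 TPM against 0.16 and 0 TPM (3.57). Of 15 erythrocyte models 12 were higher in kidney and 1 in intestine (median 2.70), and 7 were higher in kidney without kidney replicate 1 or intestine replicate 2. The globin hbg1.L had 7832 and 2775 TPM in kidney, 499 and 135 TPM in intestine (4.16, limma adjusted p = 0.00093) and a mean of 44798 TPM in liver. Among 31 endothelial models 7 were higher in kidney and 0 in intestine (0 unadjusted, median 1.31). That count was 1 after median-of-ratios scaling, 11 with the frog as a block, and between 1 and 5 when a library was left out (1 without intestine replicate 2, 2 without either kidney library). Of 28 lymphocyte models 1 was higher in kidney and 5 in intestine (median -0.91), 2 and 10 with the frog as a block, 1 and 11 after median-of-ratios scaling, and in intestine 1 without kidney replicate 2, 2 without intestine replicate 1 and 3 without either other library. Of 27 fibroblast and matrix models 4 were higher in kidney and 0 in intestine (0 unadjusted, median 1.0), with 2 without either kidney library or intestine replicate 2. Of 20 smooth muscle models 1 was higher in each organ (median -0.60), with sums of 1259 and 2154 TPM in kidney and 3730 and 2740 TPM in intestine, and with the frog as a block 2 were higher in kidney and 4 in intestine. The kidney count was 0 without kidney replicate 1 or intestine replicate 2 and 2 without intestine replicate 1, and the intestine count was 0 without kidney replicate 1 or intestine replicate 1 and 3 after median-of-ratios scaling. Of 24 models of enteric neurons and glia 1 was higher in kidney and 3 in intestine (median -0.04). The kidney count was 4 without kidney replicate 1, and the intestine count was 5 without intestine replicate 2 and 1 without any other library. The kidney call was ednrb.L, an endothelin receptor, at 155 and 60.5 TPM against 0.16 and 0 TPM (6.51). Of 9 macrophage and granulocyte models 1 was higher in kidney and 2 in intestine (median 0.65). The intestine calls, ctss.L and ctss.S of the protease ctss, were lost without kidney replicate 2 or intestine replicate 1, and that of ctss.S also without kidney replicate 1. The kidney call was a further model of this gene, ctss.2.L, at 10.2 and 3.34 TPM against 0 and 0.06 TPM in intestine (2.76). Liver markers were called higher in kidney in 5 of 25 models and in intestine in 0 (0 unadjusted, median 0.13), led by plg.S (plasminogen) at 164 and 38.3 TPM against 0.63 and 0.27 TPM (5.81). In kidney these liver markers summed to 250 and 113 TPM, there were 3 calls without kidney replicate 1 and after median-of-ratios scaling, and 1 model was higher in intestine without intestine replicate 2. Pancreas acinar markers had 0 calls in 22 models by limma (0 unadjusted, median -0.29) and summed to at most 65.4 TPM in any of the 4 libraries. The oocyte list kept 7 tested models after those highest in ovary were left out, of which figla.L was higher in kidney (8.13 and 5.87 TPM against 0.14 and 0.08 TPM, 2.84), and the cell division list kept 6 with 0 calls (0 unadjusted). The part of these cell types in the results for other genes was not tested.

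What the organs had in common was asked against the mean of the other 12 tissues. Of 25794 tested members 1346 (5.22%) were called above the other 12 in both organs, out of 4038 in kidney and 3473 in intestine, which is 33.3% and 38.8% of each list. These comparisons share the 24 libraries of the other tissues. After median-of-ratios scaling the number was 781, under quantile normalization 805, with a pseudocount of 5 it was 826, and without kidney replicate 1 it was 917. Between the organs 151 of the 1346 were higher in kidney, 207 were higher in intestine and 988 were not called, but for only 82 did the 95% interval of the difference lie within 1 on either side of 0. In 251 of the 1346, 143 with a usable symbol, all 4 libraries lay above all 24 others. The calls make this likely, so it adds no further support, and the share over all tested members was not counted.

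The 10 named shared genes were of several kinds, among them carriers, an apolipoprotein, a galectin and an actin-binding protein. Apolipoprotein A1, apoa1.S, had 1858 and 1831 TPM in kidney and 3569 and 7333 TPM in intestine, with at most 739 TPM in any other library. The difference between the organs of -1.47 did not pass the test (95% interval -2.89 to -0.05, limma adjusted p = 0.182). After slc6a19.L and slc5a12-like.L came ucp1.L, an inner mitochondrial membrane carrier, at 1089 and 179 TPM in kidney and 223 and 397 TPM in intestine. Its organs overlapped, with kidney above intestine in the Taira frog and below it in the Ueno frog, and the next tissue was testis at a mean of 0.12 TPM. The brush border galectin lgals4.L had 785 and 1765 TPM in kidney and 644 and 745 TPM in intestine (0.76, 95% interval -0.13 to 1.66). The scaffold pdzk1.L, which holds carriers at the apical membrane, had 423 and 171 TPM and 336 and 400 TPM (-0.44, 95% interval -1.62 to 0.74). Most of these genes could not be told apart between the organs at this number of libraries, and their intervals allow differences of more than 1. An exception was clrn3.L, a clarin, at 156 and 120 TPM and 172 and 175 TPM, whose interval of -0.96 to 0.28 around -0.34 stayed within 1, while it was at most 0.75 TPM in any other library. The actin-binding eps8l3.S, at 357 and 103 TPM and 279 and 76.1 TPM, was higher in replicate 1 of both organs.

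The balance of the L and S copies of a gene was then compared between the organs. The log2 ratio of L to S, with 1 TPM added to each copy, was compared for 5320 pairs with neither copy highest in ovary, and 908 (17.1%) were called, 467 with a higher share of L in kidney and 441 with a higher share of L in intestine. With a pseudocount of 5 the number was 586. Of 1811 pairs with a summed 10 TPM or more in both organs, 293 were called. Where both copies were tested (4823 pairs), both were higher in kidney in 264 pairs, both higher in intestine in 112, only 1 was called in 786, and neither was called in 3641. In 20 pairs the copies were called in opposite directions. Reads that fit both copies were divided between them by the authors' counting, so the ratio of near-identical copies is uncertain.

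The pair with the largest change was mep1a, meprin alpha. Its L copy was the intestinal one, with 0.66 and 2.08 TPM in kidney and 1091 and 2149 TPM in intestine. Its S copy was the kidney one, with 54.8 and 67.8 TPM in kidney and 0.07 and 0.04 TPM in intestine. The log2 ratio was -4.78 in kidney and 10.50 in intestine, a change of -15.28 (SE 0.30, limma adjusted p = 1.42e-16), and the copies did not overlap in either organ. The aminopeptidase A pair enpep used both copies in kidney, enpep.L at 48.2 and 23.3 TPM and enpep.S at 63.3 and 30.2 TPM, but in intestine the L copy alone was high (383 and 281 TPM against 0.19 and 0.26 TPM for S), a change of -8.44. The sulfur transferase tst turned from the S copy in kidney (205 and 303 TPM, with L at 6.2 and 10.9 TPM) to the L copy in intestine (127 and 86.7 TPM, with S at 52.6 and 0.41 TPM), a change of -8.37 (SE 1.04). The S copy of tst was uneven between the intestine libraries. The adhesion protein tmigd1 changed likewise, with tmigd1.S at 338 and 161 TPM and tmigd1.L at 43 and 50.3 TPM in kidney, against 18.4 and 0.63 TPM and 494 and 66.3 TPM in intestine (-7.32). The transferrin family member mfi2 also moved towards L in intestine (-6.40). Pairs with a summed mean under 10 TPM in either organ were left out of the named pairs, among them mmp1 (-11.00) and ca13 (8.62).

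In other pairs the ratio of L to S was higher in kidney, with different copies carrying the change. For rhbg, the ammonia channel, the L copy had 443 and 515 TPM and the S copy 128 and 141 TPM in kidney, while in intestine the L copy was at 0.85 and 0.17 TPM and the S copy was at 53.7 and 15.6 TPM (6.18, SE 0.39, limma adjusted p = 2.31e-09). For fabp1, the liver fatty acid binding protein, kidney had the L copy only (98 and 54.1 TPM, with S at 0 and 0.8 TPM), and intestine had both (550 and 81.8 TPM for L, 791 and 846 TPM for S), a change of 7.72. In gcnt3, a mucin-type glycosyltransferase, intestine had the S copy alone (67.2 and 162 TPM, with L at 0 and 0.1 TPM) and kidney both (126 and 68.8 TPM for L, 71.5 and 21.1 TPM for S), a change of 7.89. The sulfate carrier slc26a1 had its L copy in both organs (485 and 67.9 TPM in kidney, 144 and 8.11 TPM in intestine) and its S copy in intestine alone (68.2 and 12.1 TPM, against 0 and 0.02 TPM in kidney), a change of 7.23. The cytochrome cyp1d1 changed by 5.98. In 40 called pairs the leading copy changed between the organs, by at least 1 on the log2 scale in every library.

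**Figure D5:**
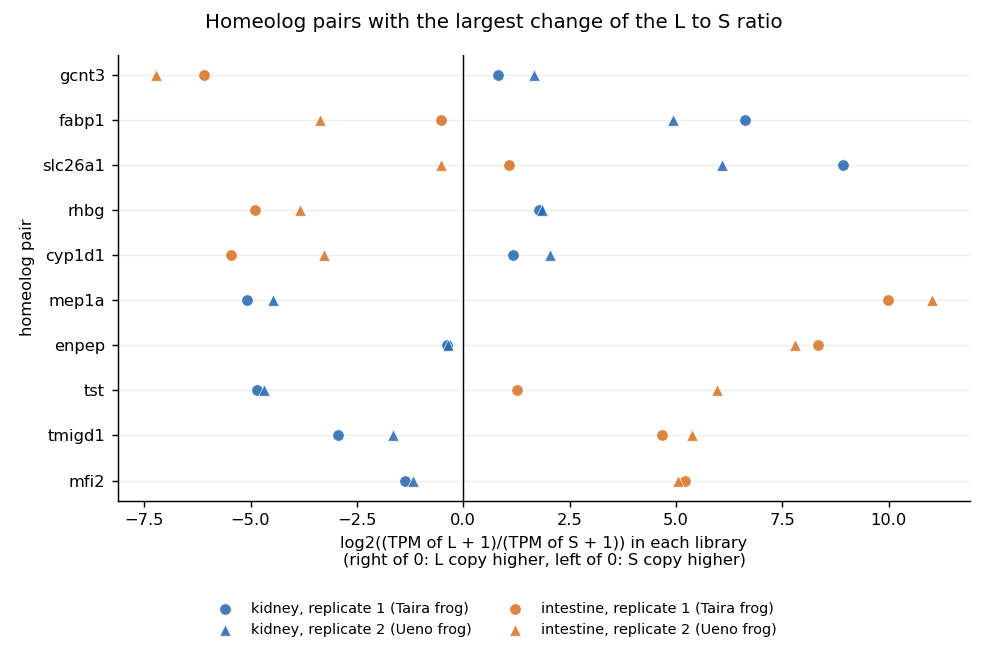
log2 ratio of the L to the S copy, with 1 TPM added to each, for 10 named pairs. The 4 libraries are shown, with kidney in blue and intestine in orange. These 5 per direction changed most among pairs with a usable symbol and a summed mean of at least 10 TPM in both organs. The pair mep1a lies on the S side in both kidney libraries and far on the L side in both intestine libraries, and in no pair do the organs overlap.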

How the data were processed

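Per the labels' protocols, RNA from minced tissue was TRIzol extracted and column purified, poly-A captured and sequenced without strand information. Reads were aligned and quantified on cDNA models, per the labels, and BWA 0.7.10 with RSEM 1.2.19 are named in the submitters' processing notes. The authors deposited 1 table of TPM values, whose 4 columns used here sum to 1000000 within rounding. TPM is a share, so a gene can be lower because others are higher, and it keeps no depth, so no counting interval is given. All columns were mapped to samples by name.

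Models with at least 1 TPM in at least 2 of 28 libraries (33317) entered a limma fit (version 3.58.1, R 4.3.3) of log2(TPM + 1) that gave each tissue its own mean, left 14 residual degrees of freedom and used a variance trend. Adjusted p-values are limma's with Benjamini-Hochberg adjustment over all 33317 models, or over all 7749 tested pairs for homeolog ratios (of 8017 pairs of symbols). Per the series design, each dataset took kidney and intestine from 1 female, so equal replicate numbers pair the libraries. Their Ueno minus Taira differences correlated across genes with r = 0.429 (25794 genes). The frog as a block was an alternative.

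The members and the 42 gene lists were chosen with earlier results of these data known. Lists were matched by symbol without the copy letter, a number after a point or "-like". Named were the 12 called genes with the largest difference per direction whose libraries do not overlap, up to 4 called members per direction and 2 uncalled members of each list, 10 shared genes, 5 homeolog pairs per direction, and the members of 17 pairs of related genes. Leading genes, shared genes and homeolog pairs with no symbol or a placeholder symbol were passed over. Named homeolog pairs also needed a summed mean of at least 10 TPM in both organs. Some genes that this rule names are not reported here, and other names are marked in the text. The kidney minus intestine fit was tested on simulated data with 200 changed models. It recovered 11% of changes of 1.5 on the log2 scale, 39.5% of changes of 2 and 76% of changes of 3. Falsely called were 0, 5 and 10 models. Alternatives were other pseudocounts, filters, scalings, the block, no trend, other sets of libraries, leaving out 1 of the 4 libraries at a time (the spread of the lone library is then taken from the other tissues), and pairs with a copy highest in ovary left out of the fit, the last chosen after seeing the data. Python 3.11.15, numpy 2.4.6, pandas 2.3.3 and matplotlib 3.10.9 were used.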

Additional observations from a re-analysis of the deposited data

Results flagged for a closer look

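In several named genes the difference between kidney and intestine went opposite ways in the frogs, and 2 were flagged. In these 2 the difference was at least 1 in size in each frog. Others, such as pdzk1.L (0.33 and -1.22) and cldn8.1.L (-0.67 and 3.57), changed sign with a smaller difference in 1 frog. For cldn4.L, a claudin, it was -1.05 in the Taira frog and 1.71 in the Ueno frog on the log2 scale, with 143 and 197 TPM in kidney and 297 and 59.4 TPM in intestine. For ucp1.L it was 2.28 in the Taira frog and -1.15 in the Ueno frog. Each frog has 1 library per organ, so the difference between the frogs was not tested.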

How the results depend on the processing

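The 4 counts kept within 1.5 times of their values except as follows, and except the kidney count without intestine replicate 2, which fell just past that. The kidney count of 2757 was 1784 after median-of-ratios scaling, 1745 under quantile normalization, 1689 with a pseudocount of 5 and 850 with only the 4 libraries in the fit, which leaves few degrees of freedom. The intestine count of 1486 was 432 with only the 4 libraries. The shared count of 1346 was 781, 805 and 826 under the former 3 settings, and the homeolog count of 908 was 586 with a pseudocount of 5 and 253 with the 4 libraries. When each of the 4 libraries was left out, the counts ranged from 1831 to 2472 in kidney, from 1106 to 1578 in intestine, from 917 to 1218 for shared models and from 660 to 784 for homeolog pairs. With the frog as a block, the replicate pairing of the design, there were 3585, 1825, 1693 and 1046. It lost none of the 199 calls of named models. Of these, 102 missed the threshold with only the 4 libraries, 11 after median-of-ratios scaling, and between 26 and 30 without 1 library. None of these calls changed direction under the settings that could test them. The causes were not tested. With 2 frogs per organ, genes that were not called may still differ, and TPM gives no read depth.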
